A study of Mus musculus with 11 samples.

Results

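The 10 genes described here are RNAs that work without being translated, or rows of the count table that lie on such RNAs: the 7SK RNA gene Rn7sk and its sequence relatives Gm26315 and Gm24447, the catalytic RNAs Rpph1 and Rmrp, the mitochondrial ribosomal RNAs mt-Rnr1 and mt-Rnr2, and Gm42418, CT010467.1 and AY036118, which overlap each other at a ribosomal RNA repeat. They were 10 of 25311 genes in the table, and were chosen because earlier results of these data had shown them to differ between mice given streptozotocin (STZ) and controls. That difference is therefore given as a description without a test. The tests below compare the omega diets, and the lists of other genes.

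Retinas of C57BL/6J mice were taken at postnatal day 10, dissociated with papain, and captured cell by cell with inDrop v3, a droplet method in which each captured RNA molecule carries a unique tag (UMI), so that molecules and not reads are counted. Controls received PBS (n = 3 mice), and Phase I ROP mice received STZ, a toxin of the insulin-producing beta cells, used here to raise blood glucose in the newborn (n = 3). Further STZ mice were nursed by dams on an omega-3 enriched diet (n = 2) or an omega-6 enriched diet (n = 3). Controls and STZ mice on standard feed were littermates, and the mice on the omega diets were littermates from another litter that were divided between 2 cages, so feed cannot be told apart from litter, and the omega diet cannot be told apart from the cage and the dam. A total of 20033 cells with more than 300 genes were kept, between 787 and 2618 per mouse, with 2563064 to 6516478 UMIs per mouse and a median of 1003.5 to 2341 UMIs per cell. Clustering and markers gave 10178 rod-like, 1126 cone-like, 3596 bipolar-like, 3287 amacrine-like and 1425 Müller glia-like cells. In all, 1154 barcodes occurred in more than 1 library, in 2345 cells.

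Ribosomal RNA makes up most of the RNA in a cell, and the RNAs of the mitochondrial ribosome are transcribed from the mitochondrial genome together with the mitochondrial messenger RNAs. 7SK RNA, made by RNA polymerase III, holds the elongation factor P-TEFb in an inactive complex with the Hexim proteins. Rpph1 is the RNA of RNase P, which trims transfer RNA precursors, and Rmrp is the RNA of RNase MRP, which acts in ribosomal RNA processing. 7SK, RNase P and RNase MRP RNAs carry no poly(A) tail, the feature by which oligo(dT) primers find messenger RNAs, whereas mitochondrial ribosomal RNAs carry short ones.

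Rn7sk lies at chr9:78175303-78175633 on the minus strand (GRCm38), and its transcript is 331 bases long in GENCODE M21. Gm26315 (chr2:7076094-7076414, minus strand) and Gm24447 (chr15:93234363-93234700, plus strand) are annotated as miscellaneous RNAs of 321 and 338 bases. Gm24447 held the same bases as Rn7sk over 241 bases from its start, and Gm26315 over 235 bases from base 5. The ends of the 3 transcripts are shown because a read can tell these 3 from each other with certainty only there. Capitals mark the bases outside the shared block.
Rn7sk: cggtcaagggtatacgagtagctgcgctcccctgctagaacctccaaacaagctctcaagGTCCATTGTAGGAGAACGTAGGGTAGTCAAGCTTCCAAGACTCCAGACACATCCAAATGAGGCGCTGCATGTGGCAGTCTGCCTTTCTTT
Gm26315: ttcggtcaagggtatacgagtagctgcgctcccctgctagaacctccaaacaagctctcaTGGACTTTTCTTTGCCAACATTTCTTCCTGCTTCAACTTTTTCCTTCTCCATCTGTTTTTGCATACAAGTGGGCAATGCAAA
Gm24447: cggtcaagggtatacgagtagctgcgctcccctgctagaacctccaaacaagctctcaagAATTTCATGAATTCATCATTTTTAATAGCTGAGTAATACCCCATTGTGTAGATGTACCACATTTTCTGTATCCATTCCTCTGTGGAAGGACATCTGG

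Rpph1 (chr14:50807449-50807767, minus strand, 319 bases) and Rmrp (chr4:43492788-43493058, minus strand, 271 bases) are annotated as ribozymes. They are shown because neither offers a long run of A to an oligo(dT) primer; capitals mark runs of 3 or more A, of which the 300 bases of Rpph1 printed here hold none.
Rpph1: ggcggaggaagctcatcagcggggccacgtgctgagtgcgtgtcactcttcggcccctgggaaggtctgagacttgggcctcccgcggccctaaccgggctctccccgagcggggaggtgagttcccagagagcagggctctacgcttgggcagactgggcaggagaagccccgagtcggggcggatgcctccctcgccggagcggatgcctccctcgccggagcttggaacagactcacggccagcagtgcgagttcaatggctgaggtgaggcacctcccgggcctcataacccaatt
Rmrp: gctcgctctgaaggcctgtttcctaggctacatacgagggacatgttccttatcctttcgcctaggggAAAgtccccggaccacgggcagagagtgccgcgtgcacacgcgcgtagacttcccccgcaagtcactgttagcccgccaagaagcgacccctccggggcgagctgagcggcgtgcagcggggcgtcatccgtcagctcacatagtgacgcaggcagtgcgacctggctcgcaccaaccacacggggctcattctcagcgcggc

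The mitochondrial ribosomal RNAs mt-Rnr1 (chrM:70-1024, 955 bases) and mt-Rnr2 (chrM:1094-2675, 1582 bases) and the nuclear gene Gm42418 (chr17:39846958-39848788, plus strand, 1831 bases) hold longer runs. The stretches around the longest run in each are shown, with runs of 4 or more A in capitals, and come from chrM:665-749, chrM:1448-1534 and chr17:39847127-39847212.
mt-Rnr1: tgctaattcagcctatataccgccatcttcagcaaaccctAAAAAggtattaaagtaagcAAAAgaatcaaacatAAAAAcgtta
mt-Rnr2: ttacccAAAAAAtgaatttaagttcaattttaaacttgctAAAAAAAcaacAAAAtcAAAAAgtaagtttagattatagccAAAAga
Gm42418: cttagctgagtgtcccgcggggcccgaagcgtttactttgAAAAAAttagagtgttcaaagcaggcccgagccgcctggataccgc

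The longest run of A was 3 bases in Rn7sk, 2 in Rpph1, 3 in Rmrp, 5 in mt-Rnr1, 7 in mt-Rnr2 and 6 in Gm42418. Over all 141767 annotated transcripts the median longest run was 5, and 37.7% held a run of 6. The part of priming at such runs in the counts was not tested.

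AY036118 (chr17:39847113-39848035, minus strand) lies wholly within Gm42418 on the opposite strand, over 923 bases, and CT010467.1 (minus strand, annotated as ribosomal RNA) shares 1244 bases with it. Without counts that use strand, reads from the shared bases of these genes cannot be told apart. The cells show the same: AY036118 never had more UMIs than Gm42418 in any of 3247 cells with either, and CT010467.1 had fewer than Gm42418 in only 7 of 3916 cells. Likewise Rn7sk was never below Gm26315, and Gm24447 equalled Gm26315 in 95.8% of the 428 cells with either. The 3 rows on chromosome 17 therefore count largely the same molecules, as do parts of the 3 7SK rows, and their agreement is no repeated evidence. Gm26035, another miscellaneous RNA, shared 145 words of 31 bases with Rn7sk and held 87 UMIs. Gm24447 shared such words with 108 other genes, Rn7sk with 3 and Gm26315 with 2. UMIs of Gm24447 may therefore belong to another gene. Rmrp, with 74 UMIs in all, shared 94 words with Ccdc107, which held 2072 UMIs. Rpph1, with 150 UMIs, shared 203 words with Ccnb1ip1, which held 94. UMIs of both RNAs may belong to the neighbour, and how many was not tested.

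The members differed widely in level. In controls, mt-Rnr2 stood at 21563 ± 4155 CPM (UMIs scaled to a common library total) per kilobase of transcript and mt-Rnr1 at 6369 ± 844 (SD, n = 3). Rn7sk followed at 692 ± 161 CPM per kilobase, Gm42418 at 105 ± 43, Rpph1 at 46.3 ± 3.2 and Rmrp at 30.4 ± 4.1. On this scale the ranges of the control mice did not overlap between neighbours. The lowest Gm42418 mouse, at 56.8, was closest to the highest Rpph1 mouse, at 48.8. The order depends on the division by length, although UMIs count molecules. Without it Rn7sk, at 193 to 290.2 CPM, overlapped Gm42418, at 104 to 255 CPM, and CT010467.1, at 140 to 334 CPM. Over all mice mt-Rnr2 gave 496506 UMIs, 1.08% of the total, and was found in 94.2% of cells, whereas Rmrp gave 74 UMIs.

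Counts of 7SK RNA were far lower in STZ mice than in controls, and whether its capture differed between the libraries was not tested. Rn7sk stood at 193, 203 and 290.2 CPM in the 3 controls. It stood at 9.38, 3.90 and 1.15 CPM in the 3 STZ mice on standard feed. Every STZ mouse was far below every control, with a fitted log2 difference of -5.82 ± 0.40 (SE). Gm26315 and Gm24447 gave -5.30 ± 0.35 and -4.77 ± 0.29. The gap was present in each class, from -4.76 ± 0.52 in Müller glia-like to -6.76 ± 0.43 in bipolar-like cells. In whole-retina sums, fewer cells of a type and less RNA per cell cannot be told apart. In control rods Rn7sk was at 229, 272 and 347.7 CPM, and in rods of STZ mice at 7.73, 11.1 and 0.924 CPM.

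The low level was shared by the mice on the omega diets. Rn7sk stood at 4.41 and 2.46 CPM on the omega-3 diet and at 7.50, 16.2 and 14.9 CPM on the omega-6 diet. The highest of the 8 STZ mice lay below the lowest control.

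**Figure D1:**
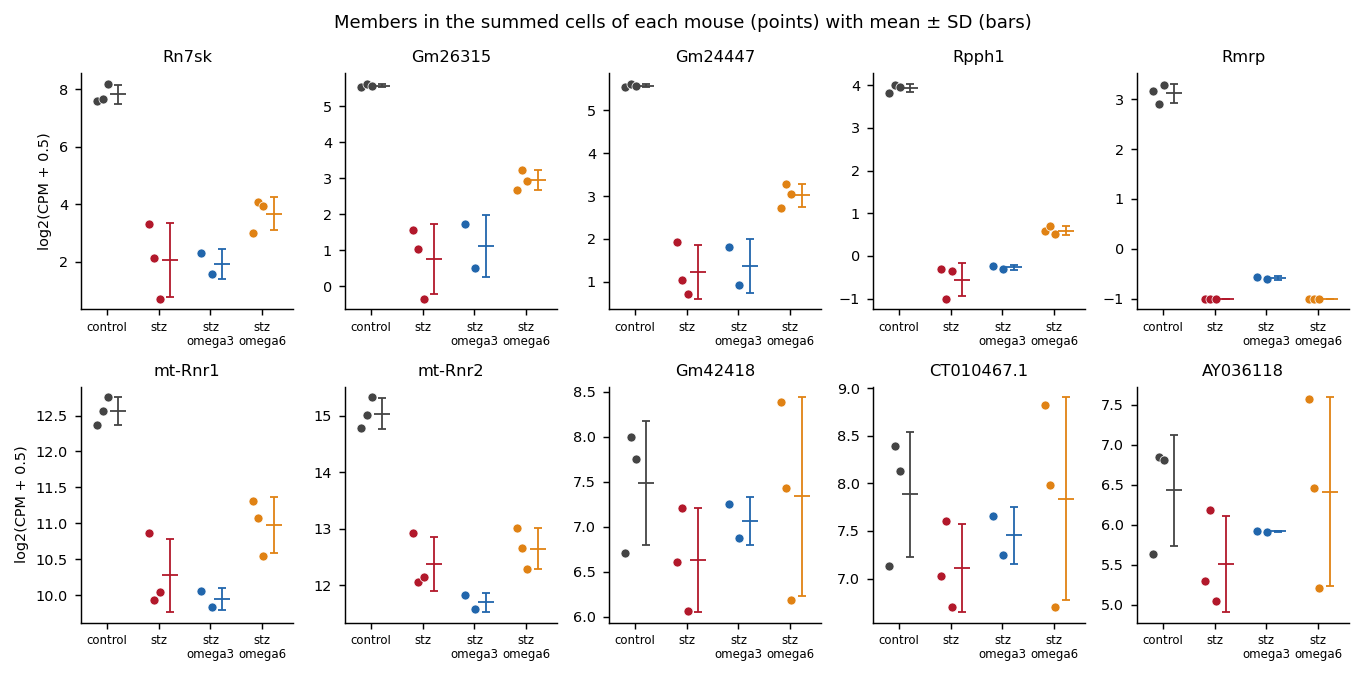
Each panel plots log2(CPM + 0.5) of one member in the summed cells of each mouse (points) by group, with mean ± SD as bars. For Rn7sk the controls lie between 193 and 290.2 CPM and the 8 STZ mice between 1.15 and 16.2 CPM, whereas for Gm42418 the ranges overlap.

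The split of UMIs between the 7SK rows was higher for Gm26315 on the omega diets than in controls. Gm26315 held 20.2% as many UMIs as Rn7sk over the controls, 408 against 2024, with 16.3% to 23.9% per mouse. In the STZ mice on standard feed it held 28.9%, 13 against 45, little above the highest control. In STZ mouse 1 the share was 25.8%, with an exact 95% interval (Clopper-Pearson) of 11.9% to 44.6% that covers the control mice, and in STZ mouse 3 it rests on 1 of 4 UMIs. It held 53.7%, 22 against 41, on the omega-3 diet and 56.9%, 116 against 204, on the omega-6 diet. Single cells described below held many of the UMIs on the omega-6 diet. Omega-3 mouse 1 had 64.0%, 16 against 25. Omega-3 mouse 2 had 37.5%, 6 against 16, with an interval of 15.2% to 64.6% that covers the control mice. The omega-6 mice had 78.9%, 54.5% and 47.7%. Such intervals cover counting error only. AY036118 against Gm42418 showed no such gap, at 48.4% in controls and 50.1% in STZ mice.

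UMIs of RNase P and RNase MRP RNAs were rare, and rarer still in STZ mice. A difference in the capture of these RNAs was not tested either. Rpph1 stood at 13.6, 15.6 and 15.1 CPM in controls and at 0.302, 0 and 0.287 CPM in STZ mice on standard feed, a log2 difference of -6.10 ± 0.50. These are 37, 40 and 51 UMIs against 1, 0 and 1, so the size of this difference is uncertain. Rmrp had 72 UMIs in the controls and 0 in the STZ mice, at least 26.0-fold lower when 3 counts over the group are taken as the floor. On the omega diets Rpph1 ran from 0.307 to 1.12 CPM, and Rmrp had a UMI only in the omega-3 mice, at 0.176 and 0.153 CPM. Within classes Rpph1 was at least 17.7-fold lower in rods and at least 13.7-fold lower in bipolar-like cells.

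The mitochondrial ribosomal RNAs were lower in STZ mice by a smaller factor. The RNA of the small subunit, mt-Rnr1, stood at 5296, 6045 and 6907 CPM in controls and at 1863, 974 and 1055 CPM in STZ mice, a log2 difference of -2.48 ± 0.25. The RNA of the large subunit, mt-Rnr2, stood at 28195, 32957 and 41188 CPM against 7779, 4279 and 4546 CPM, a log2 difference of -2.88 ± 0.28. Groups did not overlap for either RNA, and STZ mouse 1 was the highest of its group for both. Across the 5 classes the log2 difference ran from -1.98 to -2.80 for mt-Rnr1 and from -2.77 to -3.27 for mt-Rnr2.

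Mitochondrial messenger RNAs did not keep step. Controls had 50.4, 56.0 and 67.5 mitochondrial ribosomal UMIs per 100 mitochondrial messenger UMIs, and STZ mice on standard feed 14.8, 18.8 and 15.5. The omega-3 mice had 8.03 and 6.78, and the omega-6 mice 18.3, 12.3 and 8.91. All 8 STZ mice lay below the controls. The balance between both ribosomal RNAs shifted too: mt-Rnr2 had 5.32, 5.45 and 5.96 UMIs per mt-Rnr1 UMI in controls, 4.18, 4.39 and 4.31 in STZ mice, 3.40 and 3.34 on the omega-3 diet, and 3.24, 2.98 and 3.33 on the omega-6 diet. These ratios are a description without a test, since both genes were chosen on the STZ difference. In Müller glia-like cells the groups overlapped, with 4.20, 5.17 and 5.57 in controls and 4.38, 5.50 and 4.68 in STZ mice.

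**Figure D2:**
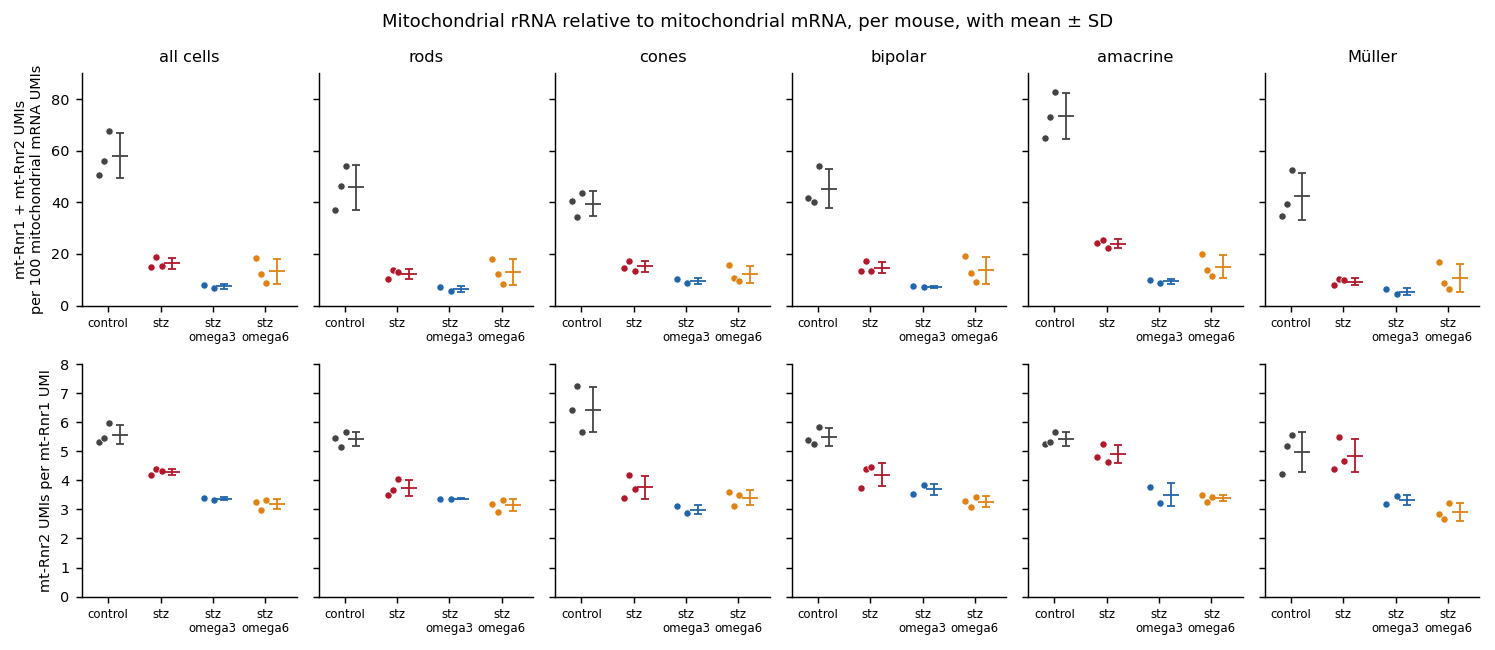
The upper row plots mitochondrial ribosomal UMIs per 100 mitochondrial messenger UMIs and the lower row mt-Rnr2 UMIs per mt-Rnr1 UMI, per mouse (points) with mean ± SD, in all cells and 5 classes. In all cells the controls lie from 50.4 to 67.5 in the first ratio and the 8 STZ mice from 6.78 to 18.8.

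The rows at the ribosomal repeat on chromosome 17 behaved otherwise. Gm42418 stood at 104, 255 and 215 CPM in controls and at 97.1, 148 and 66.5 CPM in STZ mice, so that the groups overlapped, with a log2 difference of -1.16 ± 0.31. CT010467.1 and AY036118 gave -1.09 ± 0.28 and -1.23 ± 0.32. The classes went different ways. In rods Gm42418 stood at 199.8, 819.9 and 522 CPM in controls. STZ mice stood at 57.0, 323 and 64.7 CPM there (log2 difference -2.17 ± 0.50). These rods include a cluster led by Gm42418 itself, described below. Without that cluster rods stood at 74.6, 144 and 231 CPM in controls and at 11.95, 18.8 and 11.4 CPM in STZ mice. The latter values did not overlap, but they are a description, since Gm42418 helped to shape the cluster left out. In bipolar-like cells Gm42418 stood at 42.8, 53.9 and 102 CPM in controls. STZ mice stood at 234, 57.4 and 93.2 CPM in that class (log2 difference 0.56 ± 0.42). Leaving out mice and changing settings, Gm42418 in bipolar-like cells was lower in STZ mice in 1 of 18 settings, with log2 differences from -0.25 to 1.01, and the lowest value came without STZ mouse 1. Every other member tested was lower in each class in all settings run, except CT010467.1 and AY036118 in bipolar-like cells (lower in 1 and 14 of 18).

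**Figure D3:**
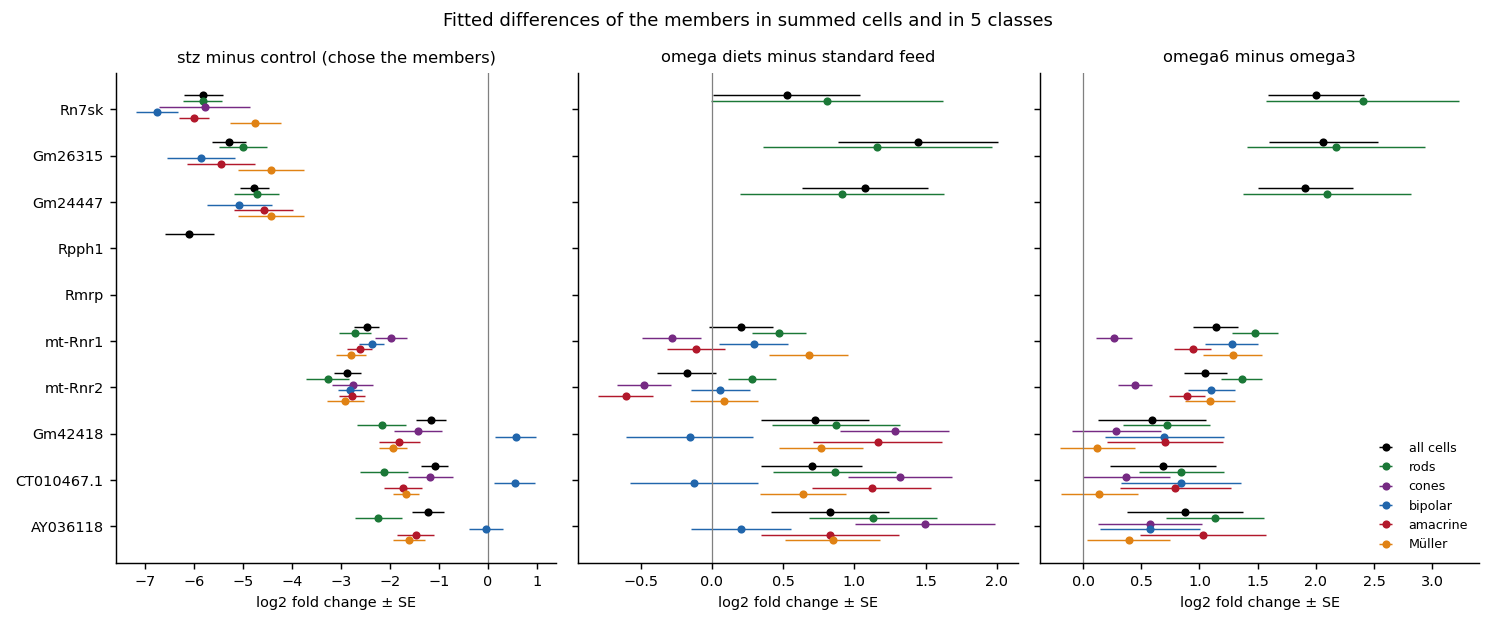
Fitted log2 differences (points) with SE (bars) of the members for STZ against control, diet-fed against standard feed, and omega-6 against omega-3 diet, in all cells and 5 classes; points whose group had no counts are left out. STZ against control ran to -5.82 for Rn7sk in all cells, and the feed and diet differences were smaller.

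The cells show how the level spread. Since cells differed in depth, each was thinned to 500 UMIs, and the 12 to 148 cells per mouse with fewer were left out. Rn7sk was then seen in 10.2% ± 2.2 of control cells (SD, n = 3), in 0.225% ± 0.197 of STZ cells (n = 3), in 0.248% ± 0.070 on the omega-3 diet (n = 2) and in 0.312% ± 0.210 on the omega-6 diet (n = 3). Without thinning the control share was 33.4%. mt-Rnr2 was seen in 98.4% of thinned control cells and in 78.5%, 70.2% and 89.1% of those of the 3 STZ groups. Gm42418 was seen in 6.92%, 2.78%, 5.39% and 10.3%, in the same order of groups, and overlapped between them. A share of cells with a UMI can hold RNA free in the droplet fluid, and no cell type that should lack these RNAs exists to measure it.

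**Figure D4:**
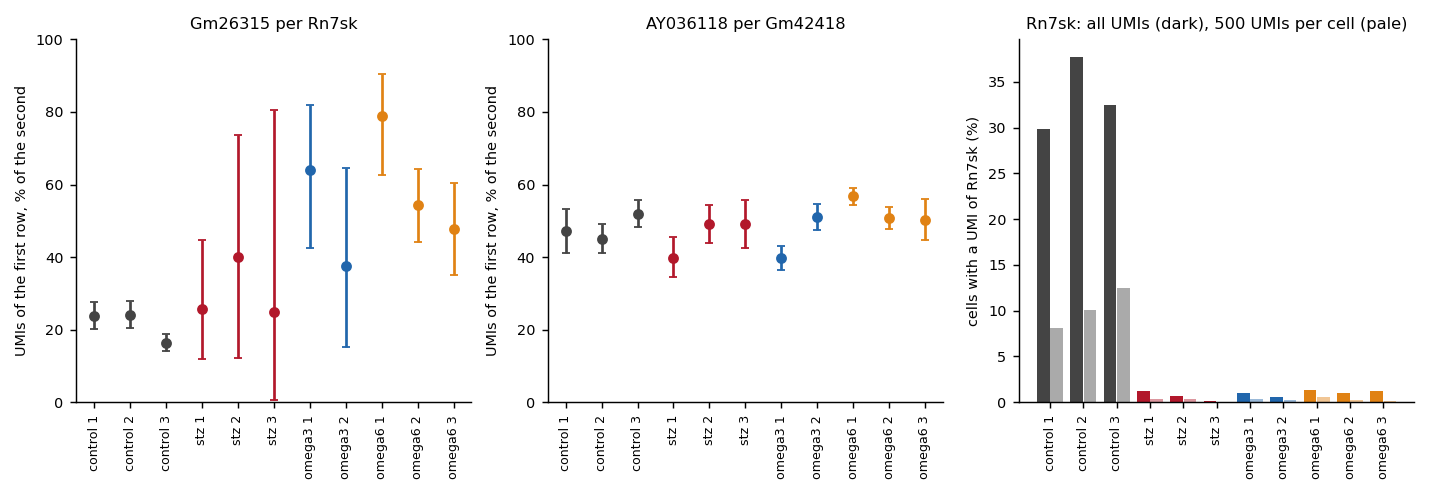
Shares of UMIs of Gm26315 against Rn7sk and of AY036118 against Gm42418 with exact 95% intervals, and the percent of cells with an Rn7sk UMI before and after thinning to 500 UMIs, per mouse. The control share of cells falls from a mean of 33.4% to 10.2% on thinning and stays above the 3 STZ groups, all under 1% after thinning.

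Some cells and clusters held a large part of these RNAs. In omega-6 mouse 2 a single rod-like cell held 79 of 101 Rn7sk UMIs, and without it the mouse stood at 3.53 CPM and not 16.2. In omega-6 mouse 3 a single amacrine-like cell held 49 of 65, and without it the mouse stood at 3.69 CPM and not 14.9. The top cell of control mouse 1 held 43 of 524. A cluster of 1051 cells was led by Gm42418, CT010467.1 and AY036118, and 996 of them (94.8%) were rod-like when the members and mitochondrial genes were left out of the clustering. It held 1.23% to 12.6% of a mouse's cells and 14.6% to 50.7% of its Gm42418 UMIs. All 3 genes were among the variable genes that shaped this cluster, so their levels there are no finding. Gm26315 and Gm24447 were among the 10 leading genes of a cluster of 211 cells, behind H2-Bl, Gm42851 and Gm12953, and 170 of these cells (80.6%) were rod-like without the members. A cluster of 154 cells led by H2-Bl, Gm12953 and Gm42851 formed when the members and mitochondrial genes were left out. H2-Bl, Gm42851 and Gm12953 were named after their values were seen.

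Depth went with the level of Gm42418. Its CPM was higher in the lowest than in the highest of 4 equal groups of cells ordered by UMIs in 10 of 11 mice, by a median of 3.24 times, with STZ mouse 1 the exception. The groups were made over all cells of a mouse, not within a class. Clusters differed in depth, with a median of 1011 UMIs in the largest rod-like and 2367 in the largest bipolar-like cluster. Gm42418 averaged 514 CPM in control rods, 361 in Müller glia-like, 132 in amacrine-like, 117 in cone-like and 66.2 in bipolar-like cells. The rod mean rests in part on the cluster led by Gm42418 itself. Without that cluster the rods of the control mice stood at 74.6, 144 and 231 CPM. The part of cell class in the depth relation was not tested. For mt-Rnr2 the ratio was 1.51, 2.80 and 2.13 in the omega-6 mice and lay between 0.767 and 1.19 in the other mice. The part of depth in the group differences, the higher mt-Rnr2 on the omega-6 than on the omega-3 diet included, was not tested.

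**Figure D5:**
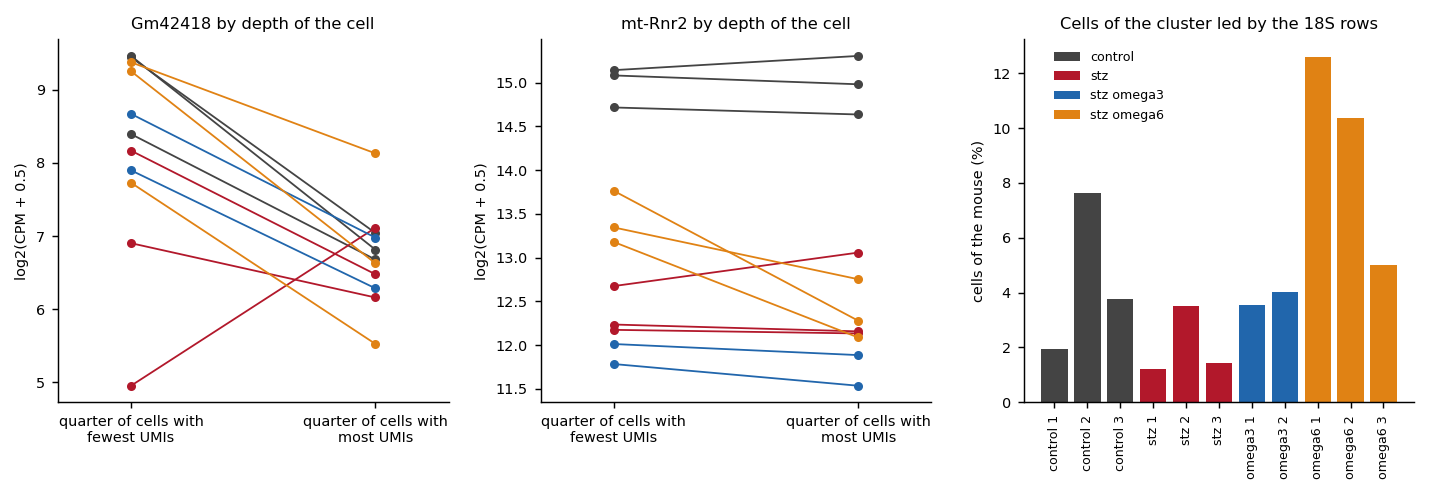
CPM of Gm42418 and mt-Rnr2 on a log2(CPM + 0.5) scale in the lowest and highest of 4 equal groups of cells ordered by UMIs, 1 line per mouse, and the percent of each mouse's cells in the cluster led by Gm42418, CT010467.1 and AY036118. Gm42418 is higher in the group with the fewest UMIs in 10 of 11 mice, and the cluster holds 1.23% to 12.6% of cells.

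Among rare classes, which had too few cells per mouse for a fit, mt-Rnr2 reached 115690 CPM over 50 endothelial-like cells of controls and 9211 CPM over 63 such cells of all 8 mice given STZ, the omega diets included, as in the values that follow. In microglia-like cells it reached 99046 CPM (12 cells) and 10552 CPM (47 cells). Retinal ganglion-like cells of controls held 58 Rn7sk UMIs in 27 cells, and those of STZ mice 1 in 69 cells. The pigment epithelium-like cells differed: mt-Rnr2 was at 4645 CPM in 9 control cells (exact Poisson interval 3509 to 6032) and at 5575 CPM in 66 STZ cells (5102 to 6081). These sums are over cells of several mice, and the intervals cover counting error only.

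Mice on the omega diets (5 mice) were compared with STZ mice on standard feed (3 mice) by edgeR's quasi-likelihood fit. The 3 mice on standard feed also entered the contrast that chose the members for low levels in them, so the comparison leans towards higher levels on the omega diets, which 29 of 36 differences showed. The differences of the members are therefore a description, and nothing is read from a call. At an adjusted p under 0.05 no member was past the threshold in all cells or rods, with an unadjusted p under 0.05 for 2 in each, where 8 of 10 passed the filter on low counts and Rpph1 and Rmrp did not, beside 0.264% of 18573 genes and 0.281% of 12795 genes called in all. In cones 1 of 5 members was past it, beside 3.26% of 9323 genes. This was CT010467.1, with 40.7, 75.2 and 94.2 CPM on standard feed, 177 and 134 CPM on the omega-3 diet, and 333, 175 and 79.3 CPM on the omega-6 diet. Its log2 difference was 1.32 ± 0.37, with omega-6 mouse 3 within the range of standard feed, and over 19 alternative settings it was past the threshold in 8. Gm42418, which counts largely the same molecules, gave 1.28 ± 0.38.

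In the other classes none of 5 members was past the threshold, beside 0.0361% of genes in bipolar-like, 0.0221% in amacrine-like and 0.0882% in Müller glia-like cells. Of 36 pairs of member and class or all cells, 15 had an unadjusted p under 0.05, and DESeq2 called 1, Gm42418 in cones, and gave 5 pairs no adjusted p. The largest difference of mt-Rnr2 was in amacrine-like cells, -0.60 ± 0.19.

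The omega-6 diet was compared with the omega-3 diet in the same way. With mt-Rnr1 and mt-Rnr2 left out, no member was called in any of 24 pairs. Of these, 8 had an unadjusted p under 0.05, and DESeq2 called 0 but gave 9 of the 24 no adjusted p. With a replicate block, by numbers that the labels do not tie to a shared animal or cage, 17 pairs were called. Genes called in all were 0% in all cells, cones, bipolar-like, amacrine-like and Müller glia-like cells, and 0.0158% of 12664 genes in rods. The share in rods counts mt-Rnr1 and mt-Rnr2, which were named from this same contrast, so nothing is read from it. Rn7sk in all cells gave a log2 difference of 2.00 ± 0.42 (adjusted p = 0.682). This difference rested on the 2 cells described above, since without the top cell of each mouse it was 0.69 ± 0.45 (adjusted p = 0.724). Gm42418 gave 0.59 ± 0.47 (adjusted p = 0.762) in all cells. The mitochondrial ribosomal RNAs had been seen to differ by diet in earlier results, and their values are given without a test. mt-Rnr1 stood at 1063 and 916 CPM on the omega-3 diet and at 2538, 2165 and 1496 CPM on the omega-6 diet, and mt-Rnr2 at 3612 and 3060 CPM and at 8232, 6454 and 4985 CPM, without overlap. Their log2 differences in rods were 1.48 ± 0.20 and 1.36 ± 0.17, and in cones 0.26 ± 0.15 and 0.45 ± 0.15.

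The machinery around these RNAs was tested for STZ against control in lists chosen with earlier results known. In all cells 48.1% of 15964 genes were called, so single calls are common, and the corresponding shares were 41.1% in rods, 18.8% in cones, 45.3% in bipolar-like, 38.8% in amacrine-like and 10.8% in Müller glia-like cells. Of the genes tested in all lists together 78 of 167 were called in all cells (46.7%), near the share over all genes, and the median log2 difference over all genes was 0.0010. Of 13 proteins of the 7SK complex, 5 rose and 3 fell, with a median of 0.11. Hexim1, the inhibitor of P-TEFb in that complex, stood at 35.4, 17.9 and 29.4 CPM in controls and at 124.6, 145 and 154 CPM in STZ mice, and rose by 2.08 ± 0.20 (adjusted p = 1.68e-05). Ccnt2, a cyclin of P-TEFb, rose by 1.11 ± 0.13, and Ssb, which binds the ends of RNA polymerase III transcripts, fell by 1.29 ± 0.13 on the log2 scale (adjusted p = 6.10e-05 and 2.06e-05).

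Of 12 proteins of RNase P and RNase MRP, 0 rose and 3 fell, with a median of -0.23. Rpp21 stood at 57.9, 52.2 and 47.5 CPM in controls and at 38.1, 36.7 and 37.0 CPM in STZ mice, and gave -0.75 ± 0.14 (adjusted p = 0.00134). Rpp40 gave -1.17 ± 0.33 and Rpp30 -0.67 ± 0.22. Of 29 genes of RNA polymerase III, 6 rose and 2 fell, with a median of 0.28: Bdp1, part of initiation factor TFIIIB, gave 1.28 ± 0.18, and Snapc3, which serves the promoters of small nuclear RNAs, gave -1.24 ± 0.14. Of 30 genes of RNA polymerase I and ribosomal RNA processing, 4 rose and 11 fell, with a median of -0.31. Taf1d, part of the promoter factor SL1, gave -2.20 ± 0.19 (adjusted p = 8.93e-06), and Ttf1, the terminator factor, gave -1.91 ± 0.17.

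Of 27 genes of mitochondrial transcription and ribosomal RNA maturation, 5 rose and 5 fell, with a median of -0.11, near that of all genes. Dhx30, an RNA helicase of mitochondrial ribosome assembly, stood at 349, 334 and 339.5 CPM in controls and at 149, 129.5 and 122 CPM in STZ mice and gave -1.61 ± 0.13. Of the 13 mitochondrial messenger RNAs, 0 rose and 11 fell, with a median of -0.92. mt-Nd4 stood at 8711, 9991 and 9691 CPM in controls and at 7473, 3409 and 4140 CPM in STZ mice, and gave -1.17 ± 0.26 (adjusted p = 0.00367). STZ mouse 1 lay nearer to the controls than the others, as it did for the ribosomal RNAs. In Müller glia-like cells 1 of the 13 was called, where 10.8% of all genes were.

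Of 15 replication-dependent histone messenger RNAs tested, 4 rose and 4 fell. These lack a poly(A) tail in their usual form. Hist2h2aa1 and Hist2h2aa2, near-identical copies whose reads cannot be told apart, gave -1.48 ± 0.27 and -1.49 ± 0.27, and Hist1h2bc gave 0.83 ± 0.14. Of 28 other structured RNAs tested, 3 rose and 12 fell, with a median log2 difference of -0.70. Gm26035, which shares sequence with Rn7sk, gave -5.77 ± 0.71 and the mitochondrial transfer RNA mt-Ty gave 3.00 ± 0.36. Summed by kind and without a test, miscellaneous RNAs other than the members (45 genes) came to 159, 185 and 151 CPM in controls. In STZ mice on standard feed they came to 107, 93.2 and 82.6 CPM. The mice on the omega diets lay from 76.4 to 147 CPM, also below every control. Small nuclear RNAs (76 genes) overlapped, with 56.0, 92.3 and 82.2 CPM against 75.6, 68.3 and 53.9 CPM. Small nucleolar RNAs (37 genes) came to 12.5, 11.3 and 16.9 CPM in controls and to between 23.2 and 29.0 CPM in STZ mice, while mitochondrial transfer RNAs (22 genes) came to 6757, 6543 and 6106 CPM against 7778, 2853 and 3251 CPM. The latter groups overlapped, and the 5 mice on the omega diets lay from 6180 to 6903 CPM, overlapping the controls.

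In the diet-fed mice against standard feed, 1 of 151 list genes tested was called in rods (0.662%, beside 0.281% of all genes) and 2 of 117 in cones (1.71%, beside 3.26% of all genes), so the counts say nothing of the lists. These were mt-Ty in rods (1.04 ± 0.19, adjusted p = 0.0261), Hexim1 in cones (-0.76 ± 0.20, adjusted p = 0.0349) and Ybey, a mitochondrial RNA-processing factor, in cones (0.83 ± 0.22, adjusted p = 0.0406).

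Over the 8 STZ mice, the genes among 8733 whose log2 CPM followed each RNA most closely are given as a description, over mice that share litters. For Rn7sk they were Rtf2 (Pearson r = 0.92), Akap8l (0.90), Ints3 (0.88), Oaz2 (0.88) and Txn2 (0.87). Rn7sk was highest in the 2 omega-6 mice in which a single cell held most of its UMIs, and the pattern without those cells was not tested. The genes most like mt-Rnr2 were Mcts1 (0.95), Supt4a (0.90), 2610301B20Rik (0.88), Gm13625 (0.83) and Rpl6l (0.82). For Gm42418 they were Polr2i (0.94), Ppp2r5b (0.92), Fuz (0.92), Lgi1 (0.92) and Stx6 (0.91).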

How the data were processed

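Per the labels, single-cell suspensions of mouse retina were captured with the inDrop protocol. The authors processed the reads with bcbio-nextgen and its umis tool, mapped them with Rapmap to GRCm38 transcripts, and deposited unnormalized UMI counts for each gene in each cell. How reads shared by several genes were counted, and whether strand was used, is not given in the sources used here.

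Cells with more than 300 genes and genes in more than 10 cells were clustered with Seurat 5.3.0 (2000 variable genes, 75 of 100 principal components, resolution 0.2), and clusters were named from canonical markers. Of the members, 8 were among the variable genes. Scrublet marked 0.359% of cells, too few to have worked, so no cells were removed as doublets. UMIs were summed per mouse and class, with at least 10 cells per mouse, and tested with edgeR 4.0.16 in R 4.3.3 (quasi-likelihood test, TMM scaling, default filter on low counts, Benjamini-Hochberg over all genes tested, threshold 0.05). Only the groups compared entered each fit, and the diet-fed value was the mean of both diets. The test was checked on simulated counts, but the outcome is not given here and nothing is read from it. A mouse is the replicate. Control cones were few, with 14, 13 and 46 cells. Replicate numbers did not pair the mice.

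The members and lists were chosen with earlier results of these data known. Named are all 10 members and up to 3 called genes per list with the smallest p. For Rn7sk, mt-Rnr2 and Gm42418 the 5 most alike genes over the 8 STZ mice, with at least 50 UMIs in each, are named too. Gm26035, Ccdc107 and Ccnb1ip1, which share sequence with members, were also named. Transcripts and positions were taken from GENCODE M21 (GRCm38), an earlier release than the one the authors mapped to, so sequences and shared blocks may differ from those behind the counts, and 24467 of 25311 genes matched by name. The alternatives tried were median-of-ratios scaling, DESeq2 1.42.0, scaling without members and mitochondrial genes, no filter, all 4 groups in 1 fit, a replicate block, cells with more than 500 genes, no cells with the highest 5% of Scrublet scores, other classes, each mouse left out, and no thinning. Leaving out the cell with the most Rn7sk UMIs of each mouse was chosen after seeing the data.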

Additional observations from a re-analysis of the deposited data

How the results depend on the processing

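The count of member and class pairs past the threshold for diet-fed mice against standard feed, from which nothing is read because the members were chosen on the same standard-feed mice, was 1 and moved with the processing. It was 0 with median-of-ratios scaling, with cells of more than 500 genes, with the top 5% of cells by Scrublet score left out, and with the replicate block. It was 2 with all 4 groups in 1 fit and with clusters made without members and mitochondrial genes, 4 with classes by marker score, and 12 with no filter on low counts. With each mouse left out in turn it ran from 0 to 3, and the 3 came without omega-6 mouse 3. For the omega-6 against the omega-3 diet the count, without mt-Rnr1 and mt-Rnr2, was 0, and became 11 with no filter and 17 with the replicate block. The cause was not tested. The replicate numbers are only numbers: correlations of same-numbered mice were -0.029, 0.148 and 0.209 between control and STZ mice, and 0.225 and 0.439 between the diets. The share of control cells with an Rn7sk UMI was 10.2% with thinning and 33.4% with no thinning. The genes called in the lists for STZ against control numbered 78 of 167, and 64 to 88 under the alternatives run. The median log2 difference of the members for STZ against control was -3.83, and ran from -4.32 without STZ mouse 1 to -3.59 without STZ mouse 3. No called value changed sign, but values that were not called did: 10 of 36 differences of members for feed, 9 of 36 for diet and 3 of 49 for STZ against control turned in at least 1 alternative. In bipolar-like cells Gm42418 went from 0.56 to -0.25 and CT010467.1 from 0.54 to -0.29 without STZ mouse 1, and AY036118 from -0.04 to 0.36 without control mouse 3. Rn7sk for feed in all cells went from 0.52 to -0.11 without the cell with the most Rn7sk UMIs of each mouse, and Gm42418 for diet in all cells from 0.59 to -0.05 without omega-6 mouse 1. Depth limits Rpph1 and Rmrp, with 150 and 74 UMIs in all.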
